A study of Mus musculus with 23 samples.

Results

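The baseline transcriptome of the adult mouse brain was read from the 4 expression arrays of the control diet (CD) group, chosen by their sample titles. They are 4 of the 12 brain expression arrays and of the 23 samples in the series, which also holds 11 arrays of methylated DNA. The study asked how a mother's diet during pregnancy bears on behavior, DNA methylation and gene expression of her grown progeny, and the CD mice were its reference. The other diet groups and the methylation arrays were not analysed here. All 4 brains came from adult C57BL/6J males made by in vitro fertilization and carried by ICR surrogate mothers, which ate AIN93G diet with 20% casein and 0.02% folic acid by weight from 1 month before embryo transfer. The pups were delivered by cesarean section, nursed by ICR foster mothers and weaned onto the same control diet. They went through a battery of behavioral tests, and the whole brain, cerebellum included, was frozen at 19 weeks of age. All 4 RNAs were labelled with Cy3 from 0.2 ug of RNA and read on 1 slide in 1 scan. The replicate numbers 1 to 4 in the labels are used below as array 1 to array 4. Nothing in the labels says which of these males were littermates, so the spread between arrays holds mouse, RNA preparation, labelling and hybridization together.

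Brain tissue mixes neurons, which signal through synapses, with oligodendrocytes that wrap axons in myelin, astrocytes that clear transmitter and feed neurons, microglia that act as resident immune cells, and the cells of blood vessels, ventricles and meninges. RNA of a whole brain is the sum of all of these. Each array carries 60-base DNA probes that bind dye-labelled copies of the RNA, and the brightness of a probe is its readout. The level of a probe is the log2 of the value deposited for it, so that a difference of 1 is a 2-fold difference between arrays. Brightness also depends on how well a probe binds its target and on what else it binds, so an order of probes by brightness is not an order of genes by RNA amount. A probe was called detected when the scanner software marked it as well above the local background on all 4 arrays, and at background when it was so marked on 0 of 4. A gene was represented by its brightest probe and counted as detected when at least 1 of its probes was. Dimmer probes of a gene are given below for some genes only. With 1 group and no contrast, no test was made, and values are given as mean ± SD over 4 arrays.

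Of 39429 probes, 23782 were detected (60.3%), 2947 were above background on only 1 to 3 arrays (7.47%) and 12700 were at background (32.2%). By gene, 16583 of 26614 symbols were detected (62.3%), 1900 were above background on part of the arrays (7.14%), and 8131 had every probe at background (30.6%). Of detected probes 90% lay above 6.53 and 10% above 13.85, the median of probes at background was 2.99, and no spot was saturated. The lowest detected probe sat at 5.19 and the highest probe at background at 5.46, so the ranges met only in a narrow band. Single arrays detected between 62.0% and 65.3% of probes. Array 1 had the most probes that no other array detected (693), and array 3 had the most that were missing there alone (392).

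**Figure D1:**
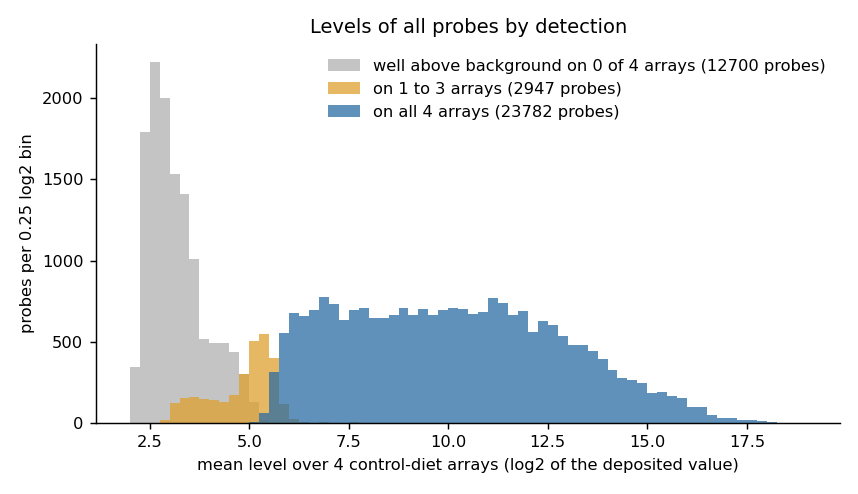
Number of probes (vertical axis) by mean level over the 4 control-diet arrays (horizontal axis, log2 of the deposited value, bins of 0.25), split by the number of arrays on which the probe was well above background. The 12700 background probes crowd around a median of 2.99, and the 23782 detected probes spread over a wide range, with 10% of them above 13.85.

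The brightest 30 genes were led by cellular basics: actin and tubulin, energy metabolism, calmodulin, ubiquitin, hemoglobin and a small number of brain genes. Their means lay between 17.50 and 18.84 and their SDs between 0.02 and 0.14, so each was read alike on all 4 arrays. The brightest of all was the probe for 28S ribosomal RNA (LOC236598, now Rn28s1), the large structural RNA of the ribosome. It read 18.75, 18.94, 18.84 and 18.81 on arrays 1 to 4.

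Actin and tubulin genes were among the brightest. Actb, the cytoplasmic beta actin, read 18.01, 17.91, 17.91 and 18.03, and its relative Actg1 averaged 17.66 ± 0.02. Tuba1b, an alpha tubulin that builds microtubules, read 17.95, 17.85, 17.97 and 17.95. Members of these families are close in sequence, so part of each signal may come from relatives.

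Energy genes were a second group. COX1 (18.05 ± 0.10) and COX2 (17.58 ± 0.14) are the cytochrome c oxidase subunits encoded by mitochondrial DNA, and Cox6a1 (17.83 ± 0.04) is a nuclear-encoded subunit of the same complex. Glycolysis was represented by Aldoa at 17.83 ± 0.07, by the brain aldolase Aldoc at 17.56 ± 0.08 and by Gapdh at 17.64 ± 0.06. The predicted gene Gm2451, which the array describes as similar to Gapdh, averaged 17.55 ± 0.06, and its signal cannot be told apart from that of Gapdh here. Gm5523, described only as a non-coding RNA, averaged 17.55 ± 0.03.

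Signaling and turnover followed. Calm2 (17.82 ± 0.05) encodes calmodulin, the calcium sensor that neurons use at synapses. Ubb (17.79 ± 0.12) encodes ubiquitin, which marks proteins for degradation, Ppia (17.93 ± 0.03) the protein-folding enzyme cyclophilin A, and Fth1 (17.72 ± 0.04) the iron store ferritin. Hba-a2, an alpha globin of red blood cells, read 17.96, 17.89, 17.84 and 17.73, a range of 0.23. The brains were rinsed before freezing, and no step that clears blood from the vessels is described.

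Brain-enriched genes among the 30 included Cpe (17.83 ± 0.05), which trims neuropeptides in secretory granules, Rtn1 (17.53 ± 0.07), a neuronal protein of the endoplasmic reticulum, and Sparcl1 (17.50 ± 0.09), a matrix protein released by astrocytes.

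Several other bright probes belonged to genes whose remaining probe was far dimmer. Slc10a1, the bile acid carrier of liver, averaged 17.93 ± 0.05 on its bright probe and 2.90 at background on the other. F10, the clotting factor X made by liver, averaged 17.91 ± 0.13 on the bright probe and 3.44 at background on the other. Elk1, a transcription factor of the ETS family, averaged 17.90 ± 0.08 against 5.52 on a second probe that was detected on 3 arrays. Kctd14 read 17.72 ± 0.08 against 8.11 for its dimmest probe, and 2610028H24Rik read 17.64 ± 0.06 against 8.16. Zfp628, a zinc finger gene, averaged 17.62 ± 0.05 on a probe of 86.7% G and C and 10.18 on the other.

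Sequence sets 6 of these 30 probes apart. Each holds a 16-base word that occurs in at least 20 of the 32851 mouse promoters in the RefSeq table (GRCm38.p6; 300 bases each, either strand). No repeat annotation was used. Whether the word bears on the reading of these genes was not tested. The part of each probe that holds the word is shown, with the word in capitals:
Exosc2: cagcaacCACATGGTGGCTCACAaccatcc
2610028H24Rik: ccacgcaGTGGCTCACAACCATCtgtaatg
LOC100044531: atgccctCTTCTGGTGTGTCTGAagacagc
F10: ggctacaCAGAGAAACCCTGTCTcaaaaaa
Elk1: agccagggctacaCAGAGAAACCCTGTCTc
Kctd14: aggttgAGGCCAGCCTGGTCTAcaaagtga
The F10 and Elk1 probes carry the same word, although the file places them at chr8:13056119-13056178 (plus strand) and chrX:20510521-20510580 (minus strand) of mm9. That word lies in 42 promoters (0.128%) and in 7 of the probes on the array (0.0178%). The Exosc2 probe, for a subunit of the RNA exosome (chr2:31536706-31536765, plus strand), has a word found in 69 promoters (0.21%) and read 18.05, 18.17, 18.09 and 18.24. The 2610028H24Rik probe (chr10:75923721-75923780, plus strand) has a word in 64 promoters (0.195%), and the LOC100044531 probe (chr7:3663046-3663105, minus strand) a word in 50 (0.152%) that 11 probes share. The word of the Kctd14 probe (chr7:104606896-104606955, plus strand) is in 36 promoters (0.11%). Slc10a1 fell below the limit of 20, with a word in 8 promoters.

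Over the whole array 137 probes held such a word (0.347%). Of these, 118 were detected (86.1%), their median level was 11.49 beside 7.1 for all probes, and they filled 18 of the 100 brightest places. A second kind of probe held a run of at least 16 bases of a unit of 1 to 4 bases. There were 310 of these (0.786%), of which 281 were detected (90.6%) with a median level of 12.42, and 1 was among the 100 brightest. In 227 genes every detected probe was of either kind. The sequences of 3 such probes are shown because their genes are named below or read bright, with the run in capitals:
Pou1f1: TCTCTCTCTCTCTCTCTCTttcttttagat
Itgam: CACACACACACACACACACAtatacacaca
Fkbp1a: aaCGCCGCCGCCGCCGCCGCCGCCatggga
Pou1f1, a pituitary transcription factor (chr16:65534889-65534948, plus strand), read 13.93, 14.36, 14.10 and 14.31 on this probe and 2.45, at background, on its other one. Itgam, a microglial integrin (chr7:135261755-135261814, plus strand), averaged 14.38 ± 0.49 on the run probe, while its other probes averaged 7.15 and 5.62. Fkbp1a, the receptor of the drug FK506 (chr2:151368420-151368479, plus strand), read 17.31 ± 0.02 on the run probe and 15.98 on the other, bright on both. What such probes bind was not tested.

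Probes of 1 gene could disagree. Of 6201 genes with several probes, 918 (14.8%) had 1 probe detected and another at background on all 4 arrays, with a median difference of 4.96 between the brightest and the dimmest and a largest of 15.02, in Slc10a1. Repeat words marked the bright probe in 9 of the 918 and runs in 24, but among the 50 widest gaps there were 3 and 12. What separated the probes of the others was not tested.

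Machinery that every cell carries was detected almost whole, beside 62.3% of all genes on the array. Ribosomal proteins of the cytosol were detected in 81 of 84 genes, led by Rps14 (17.44 ± 0.11), Rpl37a (17.22 ± 0.11) and Rpl37 (17.21 ± 0.08). Rpl10l, a testis copy of Rpl10, was the 1 member at background (3.60). Respiratory chain and ATP synthase subunits were detected in 87 of 88, with Cox8c, a testis form, at background (2.62). Proteasome subunits were detected in 38 of 40. The 2 at background were Psma8 (2.15), of the testis proteasome, and Psmb11 (3.08), of the thymus proteasome. Vacuolar ATPase subunits, which acidify synaptic vesicles and lysosomes, were detected in 18 of 22, led by Atp6v0e2 (15.89 ± 0.04). The 3 at background were Atp6v0d2 (3.00), Atp6v1b1 (3.08), a form of kidney and inner ear, and Atp6v1g3 (2.54).

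Families of the neuronal cytoskeleton and of vesicle traffic were also nearly complete, beside 62.3% of all genes. Alpha and beta tubulins were detected in 16 of 18, with only Tubb1, the tubulin of platelets, fully at background (4.67). Synaptotagmins, the calcium sensors of transmitter release, were detected in 15 of 17. Syt1, the sensor for fast release, read 16.12, 16.03, 15.75 and 15.64, highest on array 1 and lowest on array 4. Rab GTPases, which direct vesicles, were detected in 52 of 57, and Rab3a, of synaptic vesicles, was the brightest at 16.43 ± 0.10.

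Receptors for glutamate and GABA are read beside the 62.3% of all genes detected. All 19 genes of the ionotropic glutamate receptor list were detected, at means from 6.05 to 13.32. These receptors carry fast excitation. The brightest probe belonged to Grina (13.32 ± 0.07), which shares the name stem but is a membrane protein and no channel subunit, followed by Grin2c (12.86 ± 0.09), an NMDA subunit of cerebellar granule cells, and Gria4 (12.75 ± 0.05), an AMPA subunit. Metabotropic glutamate receptors, which act through G proteins, were detected in 7 of 8. Grm5 led at 14.07 ± 0.02, and Grm6, the receptor of retinal bipolar cells, was at background (2.85). GABA-A receptor subunits, which carry fast inhibition, were detected in 15 of 19. Gabrb2 (14.21 ± 0.08) was the brightest, Gabrd averaged 13.86 ± 0.17, and Gabre (2.93), Gabrp (2.86), Gabrq (2.63) and Gabrr3 (2.69) were at background.

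Receptors for acetylcholine, the monoamines and glycine varied in how many members were detected, beside 62.3% of all genes. Nicotinic acetylcholine receptor subunits passed in 7 of 16 genes, with 8 at background, and the leaders were the main brain pair Chrnb2 (10.78 ± 0.08) and Chrna4 (8.97 ± 0.03). Muscarinic receptors were detected in 4 of 5. They were Chrm1 (11.50 ± 0.03), Chrm3 (9.08 ± 0.20), Chrm2 (7.20 ± 0.23) and Chrm4 (6.14 ± 0.24), and Chrm5 was at background (2.39). The other probe of Chrm1 averaged 5.81. Dopamine receptors were detected in 4 of 5, namely Drd1a (10.23 ± 0.10), Drd2 (7.67 ± 0.17), Drd5 (7.64 ± 0.07) and Drd4 (7.37 ± 0.51). Drd4 read 7.20, 7.04, 7.10 and 8.12, so its spread came from array 4. Serotonin receptors were detected in 10 of 14, led by Htr2c (12.45 ± 0.05), a receptor rich in choroid plexus, and Htr1b (4.35), Htr2b (2.85) and Htr3b (2.14) were at background. Adrenergic receptors were detected in 7 of 9 with none fully at background, led by Adra2c (13.02 ± 0.04). Glycine receptor subunits were detected in 3 of 5: Glrb (12.78 ± 0.12), Glra2 (8.26 ± 0.24) and Glra1 (8.14 ± 0.16).

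Ion channel families are read beside the 62.3% of all genes detected. Potassium channels were detected in 73 of 90 (81.1%), and the brightest were Kcnj10 (14.82 ± 0.10), the astrocyte channel that buffers potassium, Kcna6 (14.76 ± 0.08) and Kcna1 (14.22 ± 0.07). Sodium channels were detected in 10 of 13 (76.9%), led by the beta subunits Scn2b (15.14 ± 0.04) and Scn4b (14.28 ± 0.03). Scn9a, the channel of pain fibers, and Scn7a were at background (3.07 and 3.52). Calcium channel subunits were detected in 22 of 26 (84.6%), among them Cacna1a (13.72 ± 0.12), the P/Q-type pore. Cacna1f, of the retina, and Cacng1, of skeletal muscle, were at background (2.69 and 3.85), and so was Cacna1b, the N-type pore of presynaptic terminals (5.24), on its only probe. TRP channels were detected in 20 of 29 (69.0%), and the brightest of that name, Trpc4ap (14.89 ± 0.04), is a partner protein and not a channel.

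Families of cell contact and water transport were detected in part, beside 62.3% of all genes. Claudins passed in 11 of 22, led by Cldn11 of myelin (14.05 ± 0.07) and Cldn5 of vessel walls (13.47 ± 0.03). Connexins and pannexins passed in 11 of 22, led by Gjb6 of astrocytes (13.67 ± 0.15) and Gjb1 of oligodendrocytes (12.23 ± 0.06). Aquaporins passed in 6 of 12, with Aqp4, the water channel of astrocyte endfeet, first at 12.40 ± 0.11. Clustered protocadherins, surface proteins that give neurons an identity, passed in 26 of 35, with Pcdhga9 (15.81 ± 0.03) and Pcdhac2 (13.22 ± 0.08) the brightest. The genes of a protocadherin cluster share their last exons, so a probe there can read several of them.

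Families that serve smell, taste, defense, placenta and hair were detected in a minority of their genes, beside 62.3% of all genes. Olfactory receptors, the odor sensors of the nasal lining, were detected in 49 of 1093 genes (4.48%), and 925 (84.6%) were at background. The brightest were Olfr544 at 12.68, 13.32, 12.73 and 12.36, and Olfr173 at 12.01, 12.03, 12.03 and 11.41, both lowest on array 4. Vomeronasal receptors were detected in 12 of 223 (5.38%), bitter taste receptors in 2 of 35 (Tas2r109 at 9.21 ± 0.17 and Tas2r113 at 9.0 ± 0.30), and defensins, peptides that kill bacteria, in 2 of 65 (Defb11 at 6.84 ± 0.11 and Defa-rs10 at 6.79 ± 0.14). Pregnancy-specific glycoproteins of the placenta were detected in 2 of 13, where Psg23 averaged 11.15 ± 0.02 and Psg16 7.86 ± 0.18. Major urinary proteins, made by male liver, were detected in 2 of 8, close to the background band at 6.09 ± 0.19 (Mup2) and 5.69 ± 0.24 (Mup4). Keratin-associated proteins of hair were detected in 15 of 53 and keratins in 20 of 48. Krt222 was the brightest keratin at 14.48 ± 0.22, on a probe with a run of 22 bases, while its other probe read 8.30.

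Immune families differed in how many members were detected, beside 62.3% of all genes. Interferons were detected in 0 of 13 genes, with 9 at background and 4 above it on part of the arrays. Interleukins were detected in 8 of 34, and the brightest were Il34 (12.65 ± 0.09), a ligand that keeps microglia alive, Il33 (12.58 ± 0.07), an alarm signal stored in glial nuclei, and Il17d (12.57 ± 0.04). Chemokines were detected in 17 of 33 (51.5%). Cx3cl1, through which neurons signal to microglia, averaged 15.94 ± 0.04, and Cxcl14 13.95 ± 0.09. Cxcl11 read 16.98 ± 0.34 on a probe whose word occurs in 24 promoters and 11.28 on its other probe. Toll-like receptors, sensors of microbes, were detected in 6 of 12 with 1 fully at background, led by Tlr9 (11.28 ± 0.08).

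Among developmental regulators, Hox genes, which pattern hindbrain and spinal cord, were detected in 16 of 39 (41.0%, beside 62.3% of all genes) at means of no more than 9.49 (Hoxb5). Sox genes were detected in 15 of 19, led by Sox10 of the oligodendrocyte lineage (11.84 ± 0.06). Wnt ligands were detected in 12 of 19 (63.2%) and fibroblast growth factors in 14 of 22 (63.6%), close to the share over all genes. Fgf1 averaged 13.97 ± 0.09 and Fgf12 13.67 ± 0.06. Fgf23, a bone hormone, read 14.61 ± 0.16 on a probe with a run of 20 bases and 3.59 on its other. Zinc finger genes named Zfp were detected in 287 of 320, and canonical histones in 35 of 48, led by Hist1h2ah (14.65 ± 0.07). Cytochromes P450, mostly liver enzymes, were detected in 39 of 95, serpins in 23 of 59, with Serpini1, the serpin of neurons, first at 14.69 ± 0.04, and heavy chains of muscle myosin in 7 of 8, with Myh7 of slow muscle first at 12.17 ± 0.11.

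**Figure D2:**
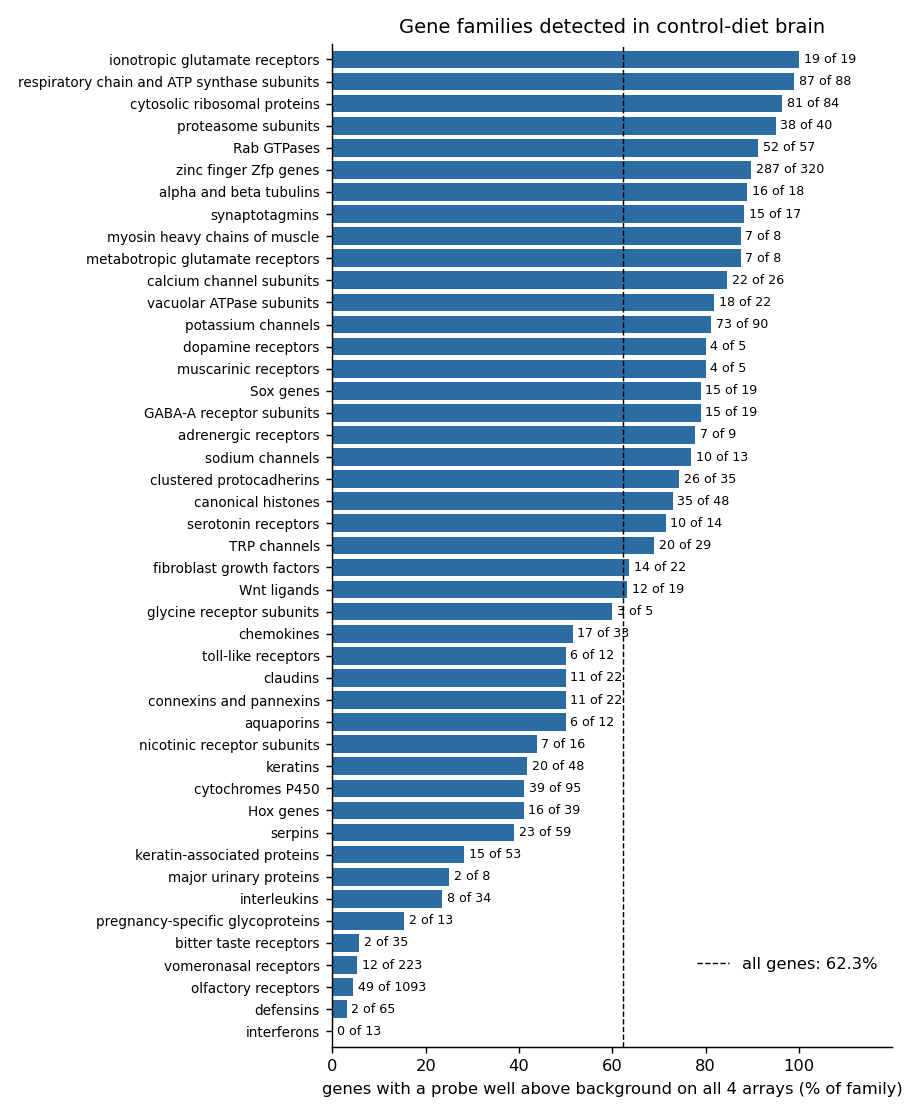
Share of the genes of each family with a probe well above background on all 4 arrays (bars, percent, counts printed beside them), with the share over all genes on the array as a dashed line. Ionotropic glutamate receptors, respiratory chain subunits, cytosolic ribosomal proteins and proteasome subunits stand at the top. Receptors of smell, taste and pheromones, defensins and interferons stand at the bottom.

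Brain cell classes were read from 23 marker lists with 190 genes on the array. Of these, 185 were detected (97.4%, beside 62.3% of all genes), 2 were above background on part of the arrays and 3 were at background. In 19 lists every gene was detected. In bulk tissue fewer cells of a type and less RNA per cell cannot be told apart, so a level says nothing of the number of cells.

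All 13 genes marking neurons of any kind were detected, at means from 12.38 to 16.26. Eno2, the neuronal enolase, read 16.29, 16.26, 16.25 and 16.23, and Thy1, a surface protein of projection neurons, 16.23, 16.31, 16.24 and 16.17. Rbfox3, the nuclear antigen NeuN, read 15.57, 15.46, 15.36 and 15.29. Snap25, of the release machinery, averaged 15.70 ± 0.04 on its only probe, which holds a run. Tubb3 was the least steady at 13.85, 14.10, 13.85 and 13.46. The list mean differed by 0.13 between arrays, highest on arrays 1 and 2 and lowest on array 4.

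Excitatory neurons were marked by 9 of 9 genes. The vesicular glutamate carriers Slc17a7 (11.31 ± 0.04), Slc17a6 (12.32 ± 0.08) and Slc17a8 (9.94 ± 0.07) were all detected, and Slc17a8 had a second probe at background (4.57). Nrgn, a calmodulin-binding protein of dendrites, averaged 14.64 ± 0.09 and Camk2a, a kinase of memory, 13.28 ± 0.21. Among regulators of cortex, Tbr1 read 13.41, 13.35, 13.27 and 13.11 and Neurod6 10.64 ± 0.01. The other probe of Tbr1 averaged 7.11.

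Inhibitory neurons were marked by 14 of 14 genes. Gad1 (14.25 ± 0.08) and Gad2 (13.80 ± 0.11) make GABA and Slc32a1 (16.10 ± 0.08) loads it into vesicles. The other probe of Slc32a1 averaged 8.78. The subclass markers Pvalb (14.74 ± 0.06), Sst (14.46 ± 0.03), Npy (12.55 ± 0.05) and Vip (9.73 ± 0.15) were all present, as was Cck (16.35 ± 0.03), a peptide that excitatory neurons make too. Lhx6, of interneurons born in the ventral forebrain, read 13.79 ± 0.29 on a run probe and 7.96 on another probe, while the remaining one averaged 3.26 and passed on 1 array.

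Regional neurons were found from forebrain to hindbrain. All 10 genes of striatal projection neurons were detected, with Penk (15.66 ± 0.11) and Ppp1r1b (14.82 ± 0.06) the brightest and Drd2 (7.67 ± 0.17) the dimmest. Adora2a averaged 10.49 ± 0.08 on its only probe, which holds a run. Cerebellar granule cells were marked by 7 of 7 genes, from Zic1 (14.55 ± 0.15) and Cbln1 (13.73 ± 0.04) to Cbln3 (8.34 ± 0.07). Gabra6, the GABA-A subunit of these cells, read 12.33, 12.26, 12.34 and 12.37. Purkinje cells were marked by 6 of 6, among them Pcp4 (15.94 ± 0.14) and Pcp2, which read 15.02, 15.02, 15.03 and 15.22.

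Neurons that modulate the whole brain are few in number, and their listed markers were detected on all 4 arrays. For dopamine, Th, the enzyme that limits its synthesis, read 12.53, 12.66, 12.49 and 12.53, and its carrier Slc6a3 11.05 ± 0.08. For noradrenaline, Dbh averaged 9.65 ± 0.12 and Slc6a2 7.36 ± 0.16. For serotonin, Tph2 averaged 7.30 ± 0.12, Slc6a4 7.87 ± 0.13 and the regulator Fev 6.20 ± 0.26. The noradrenergic list had the widest range of a list mean among brain classes, 0.31, highest on array 1 and lowest on array 4. Acetylcholine was marked by Slc18a3 (10.35 ± 0.05), Slc5a7 (9.61 ± 0.10) and Chat (8.75 ± 0.15, a run probe), and histamine by Hdc (9.01 ± 0.08). Pitx3, a regulator of midbrain dopamine neurons, read 6.52, 6.52, 7.70 and 6.46, apart on array 3 only.

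Hypothalamic peptide genes were detected in 12 of 13. Oxytocin (Oxt) read 13.81, 13.66, 13.83 and 14.03, and vasopressin (Avp) 11.22, 11.17, 11.20 and 11.43, both highest on array 4. Cartpt (12.62 ± 0.09), Hcrt (12.33 ± 0.06), which keeps animals awake, and Pmch (12.01 ± 0.10), which drives feeding, followed. Pomc (10.38 ± 0.07) and Agrp (7.31 ± 0.12) mark the opposing satiety and hunger neurons of the arcuate nucleus. Gnrh1, made by very few cells, read 6.44, 4.64, 5.34 and 3.23 and was not above background on every array.

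Newborn and dividing cells gave the most gaps. Dcx, of migrating neuroblasts, averaged 10.01 ± 0.14 on 1 of its 3 probes, and the others averaged 5.41 and 2.40, the last at background. Nes (10.24 ± 0.07) and Sox11 (9.0 ± 0.11) were detected, and so were the division genes Mki67 (7.06 ± 0.03) and Ccnb1 (5.81 ± 0.09). Ccnb1 passed on only 1 of its 3 probes, and its dimmest averaged 2.46. Top2a (4.38, 3.07, 4.44 and 4.31) and Cdk1 (3.19, 3.99, 2.48 and 2.56), both needed for division, were at background.

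Glia were read in full apart from 1 gene. All 13 oligodendrocyte genes were detected, among them Trf (16.08 ± 0.08), the iron carrier, Mal (15.32 ± 0.03), Cnp (14.44 ± 0.08) and Opalin (8.58 ± 0.08). Mbp, the myelin basic protein, read 12.66 ± 0.15 on the brightest of 3 probes and 7.04 on the dimmest. Precursors of oligodendrocytes were marked by 7 of 7, with Olig1 (13.99 ± 0.05), Gpr17 (13.10 ± 0.07) and Pdgfra (10.53 ± 0.05). Astrocytes were marked by 12 of 12, with Glul, which turns glutamate into glutamine (15.80 ± 0.06), S100b (15.79 ± 0.07), the glutamate carriers Slc1a3 (13.99 ± 0.07) and Slc1a2 (12.97 ± 0.16), and Gfap (13.41 ± 0.07). The means of both the precursor list and the astrocyte list differed by 0.03 between arrays, as did that of mural cells, the narrowest of the brain lists.

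Microglial genes were detected in 12 of 13. Csf1r, their growth factor receptor, read 13.96, 13.90, 13.87 and 13.81. The homeostatic markers Cx3cr1 (12.39 ± 0.08), Tmem119 (10.93 ± 0.05) and P2ry12 (9.58 ± 0.25) were detected, as were the complement genes C1qa (11.76 ± 0.09), C1qb (10.96 ± 0.10) and C1qc (11.78 ± 0.10). Cd68, a lysosomal protein that rises in phagocytes, read 4.93, 4.40, 5.58 and 4.30 and passed on part of the arrays. Macrophages of the brain borders were marked by Pf4 (9.36 ± 0.02), Mrc1 (8.50 ± 0.09) and Lyve1 (6.22 ± 0.23), with Cd163 at background (3.74).

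Vessels, ventricles and meninges were all represented. Endothelial cells were marked by 12 of 12 genes, with Ly6c1 (13.92 ± 0.06), the glucose carrier Slc2a1 (13.79 ± 0.03) and Cldn5 bright and Tek (6.34 ± 0.25) dim. Their list mean was lowest on array 2 and highest on array 4, a range of 0.21. Mural cells were marked by 7 of 7, with Tagln (11.58 ± 0.11) and Acta2 (11.15 ± 0.06) of smooth muscle and Rgs5 (10.53 ± 0.08) of pericytes. Ependymal cells were marked by 6 of 6, with the cilia regulator Foxj1 at 10.26, 10.15, 10.25 and 10.25. Choroid plexus was marked by 13 of 13. Ttr, which carries thyroid hormone in the cerebrospinal fluid, read 16.14, 16.16, 16.26 and 16.15, Enpp2 averaged 15.94 ± 0.05 and Folr1, a folate carrier, 10.84 ± 0.13. Meningeal fibroblasts were marked by 6 of 6, with Dcn (13.02 ± 0.08) and Col1a2 (12.45 ± 0.07).

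**Figure D3:**
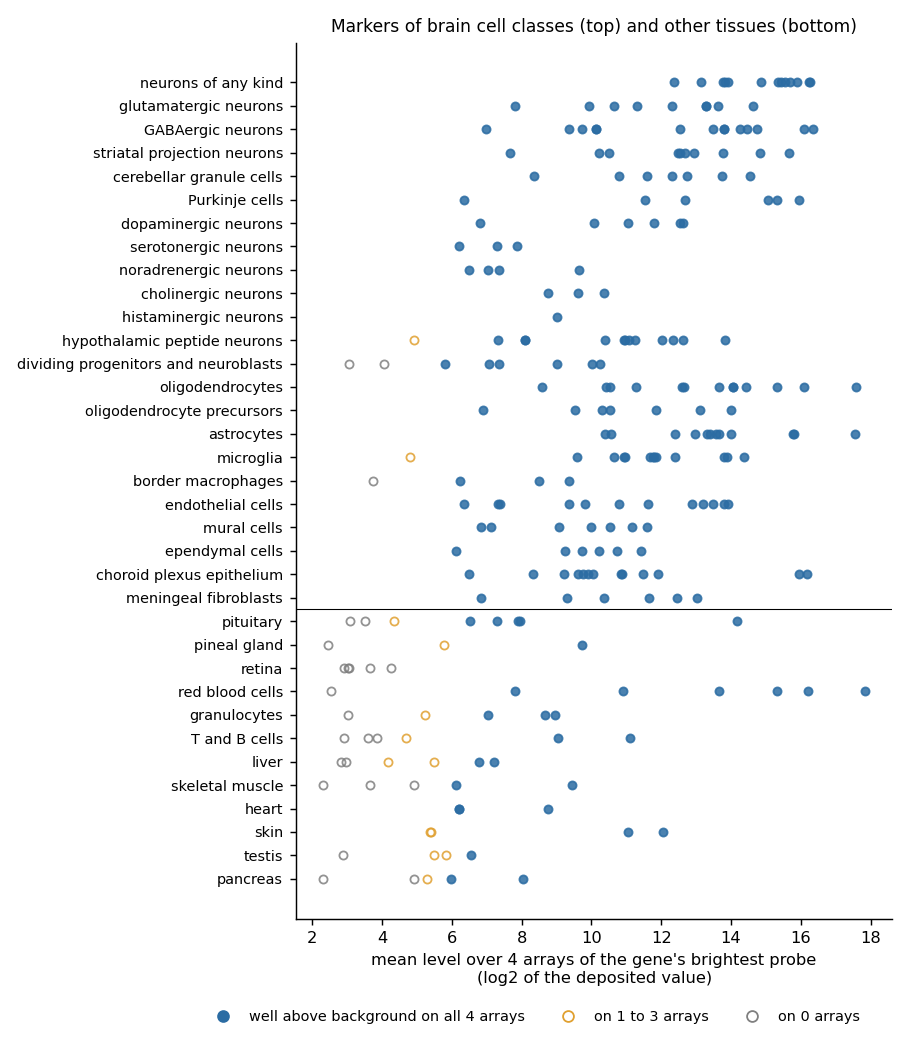
Mean level over 4 arrays of the brightest probe of each marker gene (horizontal axis, log2 of the deposited value), 1 line per list, with detection on all 4, on 1 to 3 or on 0 arrays by fill and color. Above the line, 185 of 190 genes of brain classes are filled; below it, 29 of 61 genes of other tissues are, and retina has none.

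Markers of blood cells, of the adjoining pituitary and pineal glands and of other organs were detected in 29 of 61 genes (47.5%, beside 62.3% of all genes), with 11 on part of the arrays and 21 at background. Blood cells gave 11 of the 29, with red blood cells at 6 of 7, granulocytes at 3 of 5 and T and B cells at 2 of 6. The source of these signals was not tested. None of the retina genes was detected, and Pde6b (3.04), Gnat1 (3.65), Rcvrn (4.24) and Opn1sw (3.01) were at background on all 4 arrays. For liver, albumin (Alb) read 2.96, 3.00, 2.98 and 2.95 and Apoa1 2.82 ± 0.21, both at background, while Cyp2e1 (6.79 ± 0.17) and Tat (7.20 ± 0.27) passed. Skeletal muscle had Ckm (3.66), Mylpf (2.30) and Tnnt3 (4.91) at background. Acta1, skeletal actin, read 9.10, 9.18, 9.05 and 10.47, apart on array 4.

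Pituitary hormones were detected but dim. Growth hormone (Gh) read 7.84, 8.37, 7.73 and 7.82 and prolactin (Prl) 7.89, 7.84, 7.98 and 7.91. Cga (7.30 ± 0.19) and Lhb (6.53 ± 0.27) passed as well, Tshb (4.34) passed on part of the arrays, and Fshb (3.09) and Ghrhr (3.51) were at background. Of pineal genes, Aanat, which makes the precursor of melatonin, was detected at 9.72 ± 0.12, Tph1 (5.76) passed on part of the arrays and Crx (2.45) was at background.

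Red blood cell genes were detected in 6 of 7. Hba-a1 (16.22 ± 0.10), Hbb-b1 (15.31 ± 0.06) and Hbb-b2 (13.65 ± 0.18) encode globins, and Alas2 (10.90 ± 0.06) starts heme synthesis in red cells. The ranges of the 4 globins between arrays were 0.14 to 0.40. The red cell membrane protein Slc4a1 read 7.03, 7.0, 9.74 and 7.51, high on array 3. Granulocyte genes S100a9 (8.95 ± 0.04) and Camp (8.66 ± 0.08) passed, and Ngp (3.01) did not. Of lymphocyte genes, Cd4 (11.11 ± 0.17) and Cd3e (9.05 ± 0.33) passed, while Cd8a (3.84) and Ms4a1 (2.91) were at background. The second probe of Cd4 was at background too (4.27).

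Heart was the only organ list detected in full, with 3 of 3 genes. Nppa, the atrial peptide, averaged 8.75 ± 0.07, Myh6 6.21 ± 0.09 and Tnni3 6.20 ± 0.47. The other probe of Myh6 averaged 3.22 and was not detected. Tnni3 read 5.98, 5.91, 6.91 and 6.02, apart on array 3. For skin, the keratinocyte proteins Lor (12.04 ± 0.03) and Krt10 (11.06 ± 0.14) were detected and Krt14 (5.40) and Krt5 (5.38) passed on part of the arrays. In the pancreas list, Ins2 (8.03 ± 0.32) and Ins1 (5.98 ± 0.22) were detected and the digestive enzyme genes Cpa1 (2.31) and Prss1 (4.92) were at background. In the testis list only Prm1, a protamine of sperm, was detected, at 6.81, 5.89, 6.70 and 6.81.

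Genes known to respond to neuronal activity, stress hormones, heat and time of day were read on each array, and their counts stand beside the 62.3% of all genes detected. Immediate early genes, switched on within minutes of neuronal activity, were detected in 17 of 18 with Nr4a3 on part of the arrays (4.99). Fos read 11.01, 10.84, 11.06 and 11.21. Egr1 read 14.64, 14.47, 14.47 and 14.48, and Arc, which tunes synapses, 14.50, 14.57, 14.49 and 14.45. Junb had the largest SD of the group at 0.18, and the group mean differed by only 0.02 between arrays.

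Clock genes were detected in 14 of 14, beside 62.3% of all genes. The activator Arntl read 11.72, 11.69, 11.75 and 11.68, and Dbp, an output gene with a strong daily rhythm, 13.97, 13.91, 13.81 and 13.97. The repressors Per1 and Per2 averaged 14.12 ± 0.07 and 8.93 ± 0.09. Cry1 had the largest SD of the list (0.39), at 6.23, 6.33, 6.89 and 7.01, with arrays 3 and 4 above arrays 1 and 2. Per1 is also a target of glucocorticoids, and all 9 genes of that group were detected. Fkbp5, which feeds back on the receptor, averaged 11.72 ± 0.01, and Sgk1 14.05 ± 0.06. The metal-binding Mt1 averaged 17.00 ± 0.05 and Mt2 16.41 ± 0.18. Cdkn1a, a brake on cell division, read 11.11, 12.04, 11.12 and 11.19, high on array 2, and its other probe was at background (2.88). Tsc22d3 read 14.32, 14.32, 14.31 and 14.01, low on array 4.

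Heat shock genes were detected in 7 of 7, beside 62.3% of all genes. Hspa1a, the inducible chaperone, read 10.39, 10.53, 10.37 and 10.53, and Hspa5, of the endoplasmic reticulum, 15.40, 15.42, 15.42 and 15.22. Hspa8, the constitutive chaperone, read 15.76, 16.27, 16.34 and 16.64 on its brightest probe (SD 0.37), while its other probes, at 16.19 and 14.03, had SDs of 0.127 and 0.10. Interferon-induced genes were detected in 9 of 10, from Ifi27 (Ifi27l1 on the array, 13.33 ± 0.04) and Bst2 (10.53 ± 0.05) to Usp18 (7.27 ± 0.13), with Irf7 on part of the arrays (5.37). Thyroid hormone genes were detected in 7 of 7, among them Dio2, which activates the hormone (12.38 ± 0.08).

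The 14 genes often used as references were all detected, beside 62.3% of all genes. Ppia had the smallest SD of the 14 (0.03), followed by Rpl13a (15.38 ± 0.04) and B2m (13.40 ± 0.04). Calm3, another calmodulin gene, averaged 14.56 ± 0.09.

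The 4 brains were alike over most of the array. Across the 23782 detected probes the SD of the difference between 2 arrays was 0.24 to 0.25 for 4 of the 6 pairs and 0.29 for array 1 with array 4 and array 2 with array 4, and r across probes lay between 0.9943 and 0.9962. The median probe had an SD of 0.10 and differed 1.17-fold between its highest and lowest array, and 95% of probes had an SD of at most 0.33. In 290 detected probes printed 10 times, the median SD between single spots of an array was 0.068 to 0.097. The median SD between arrays of their means over 10 spots was 0.075, which is not the same quantity. Spread fell with level. With detected probes split by level into 5 groups of equal size, from dimmest to brightest the median SD went from 0.17 through 0.12, 0.092 and 0.08 to 0.074.

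A 2-fold range between arrays, a difference of at least 1 between the highest and the lowest, was reached by 533 detected probes of 427 genes (2.24% of detected probes). Of these, 329 lay in the dimmest of the 5 groups and 28 in the brightest, and 102 reached a range of 2. In 115 of the 533 (21.6%) a single array stood apart from the other 3 by Dixon's ratio, beside 6.14% of all detected probes. The single array was high in 107 and low in 8. A probe had to be detected on all 4 arrays, so a dim probe that fell to background on 1 array was not counted. High and low sides, here and below, were therefore not equally open to dim probes. Array 3 was the high one in 45 probes, array 2 in 29, array 4 in 17 and array 1 in 16. Over all 533 probes, the array at the wider end gap was on the high side in 81 (array 1), 93 (array 2), 116 (array 3) and 107 (array 4), and on the low side in 91, 11, 5 and 29. Without array 1 the count of 533 was 318, and with normexp background correction and quantile normalization it was 109.

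**Figure D4:**
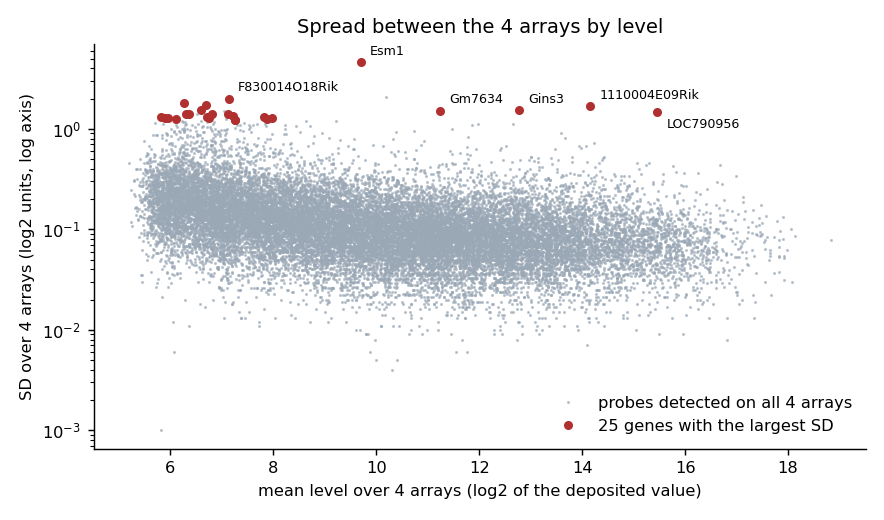
SD over the 4 arrays (vertical axis, log2 units, log axis) against mean level (horizontal axis, log2 of the deposited value) for probes detected on all 4 arrays (small points), with the 25 genes of largest SD as large points, some labelled. Spread narrows with level, and most of the 25 are dim, while Esm1, 1110004E09Rik, Gins3, Gm7634 and LOC790956 are brighter exceptions.

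The widest of all was Esm1, a proteoglycan secreted by endothelial cells, at 7.41, 16.57, 7.48 and 7.35. Array 2 was 596-fold above the lowest, and arrays 1, 3 and 4 lay between 7.35 and 7.48. The array carries 1 probe for Esm1, and 2 of 19 surrounding spots were also raised by at least 1 on array 2. The gene 1110004E09Rik (now Cfap298), needed to build motile cilia, read 13.31, 16.70, 13.22 and 13.43, again high on array 2, with 0 of 19 surrounding spots raised. Gins3, of the DNA replication helicase, read 11.95, 11.87, 15.09 and 12.22, high on array 3 with 2 of 20 raised.

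The bright predicted gene LOC790956 read 15.35, 17.58, 14.64 and 14.28, spread over all 4 arrays with 0 raised neighbors. Gm7634 read 9.06, 11.34, 12.18 and 12.36, low on array 1, while its other probe held at 14.83 to 14.92. Gm4154 read 5.63, 6.49, 7.37 and 8.92, no value apart from the rest. Trav7d-3, a T cell receptor segment, read 9.35, 8.39, 7.27 and 6.49. Its other probe read 7.20, 7.15, 7.14 and 7.85, in another order.

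The remaining probes were dim, and most were highest on 1 array. On array 3 these were Olfr513 (8.95), Wfikkn1, a protease inhibitor (9.27), Adrb3, the adrenergic receptor of fat (8.46), H2afb3 (7.75), Slc4a1, Gm3364 (7.89), Gm2252 (7.81) and Terc, the RNA template of telomerase (9.01). On array 4 they were F830014O18Rik (10.13), LOC100044756 (9.21), Mtmr3 (8.37, beside 7.16 on array 1) and LOC100039646 (9.06). On array 2 they were Phlpp2, a phosphatase of AKT (8.86), and Tcerg1l (8.36), and Gm3548 was highest there (9.27) and low on array 1 (6.23). On array 1 they were Fam170b (8.89), Ccdc64 (8.64) and Ttbk1, a tau kinase (7.96).

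Where such a gene had a second probe, that probe did not show the jump. Phlpp2 read 12.13, 12.06, 12.13 and 11.99 on its other probe, and Ttbk1 13.12, 13.02, 13.09 and 13.15. Another probe of Mtmr3 read 11.89, 11.93, 11.98 and 12.01, and that of H2afb3 11.83, 11.95, 11.97 and 12.01. Another probe of Tcerg1l read 10.20, 10.09, 10.46 and 10.45, and that of Adrb3 7.81, 7.72, 7.65 and 7.39.

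Raised neighbors on the slide were more frequent around such probes than around all detected probes. Among 106 probes printed once, with a range of at least 1 and 1 array apart on the high side, 78 (73.6%) had at least 2 neighbors, within 3 rows and 1 column, that were also up by at least 1 on that array. The share over all 93968 pairs of a detected probe and an array was 8.91%, and these pairs were not matched for level. The part of neighboring spots in each reading was not tested.

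Genes read by several probes give more than 1 reading under the same gene symbol, which need not be of the same RNA. In 4002 genes at least 2 probes were detected, and in 608 (15.2%) the deviations of every pair of them correlated at 0.8 or more over the 4 arrays. Each correlation rests on 4 points and probes of an array share its labelling, so the count is a description. The share for pairs of unrelated probes was not computed. How many of the 608 would pass without a shared difference in RNA is therefore not known. With 1 array left out, and 3 points in each correlation, the count was 923 to 996. In 9 of the 608 even the steadiest probe had an SD of at least 0.25. Array 4 was the lowest in 257 of the 608 (42.3%, beside 33.1% of all detected probes) and array 2 the highest in 214 (35.2%, beside 25.2%), while array 3 was the highest in 8.72% and the lowest in 12.7%.

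The 15 genes in which all probes moved most fell into groups by array. In Sft2d1, of vesicle fusion at the Golgi, and Spock3, a matrix proteoglycan of brain, arrays 3 and 4 were above arrays 1 and 2. The steadier Sft2d1 probe read 9.11, 9.13, 9.67 and 9.95 and the other 5.94, 5.82, 6.68 and 6.68. The Spock3 probes read 8.31, 8.02, 8.68 and 8.74, and 7.83, 8.10, 8.70 and 9.03. Both the genes and the split of arrays were picked from these same values, so the split is a description.

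Array 4 alone was low in Tuba3a, an alpha tubulin (12.14, 12.05, 12.15 and 11.45, and 12.08, 12.02, 11.79 and 11.08), and in Dcaf12l2 (7.66, 7.91, 7.85 and 7.27, and 11.38, 11.12, 11.12 and 9.85), where 1 of the probes holds a repeat word or a run. It was the highest in Gm1153 (6.64, 6.49, 6.41 and 7.14 on the steadier probe), Gm5459 (11.70, 11.67, 11.76 and 12.16), Foxl2 (6.31, 5.98, 6.36 and 6.52) and Fhl3, a muscle LIM protein (6.34, 6.43, 6.45 and 6.84). The widest of these on the mean over its probes was Dcaf12l2, with a range of 0.96. The probes of Foxl2 lay far apart in level, at means of 6.29 and 15.37.

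Array 2 was the high one in the rest. These were Mll2 (now Kmt2d), the methyltransferase of enhancer histones, Jhdm1d (now Kdm7a), a histone demethylase, Hist1h4k, a histone H4 gene, Trp53i11, Prune2, Peg3, an imprinted gene read from the father's copy, and Dlg1, a scaffold of synapses. The steadier probe of Mll2 read 6.14, 6.66, 6.08 and 6.16, and that of Hist1h4k 13.60, 14.07, 13.52 and 13.54, so array 2 was apart in both. Peg3 read 11.47, 11.63, 11.34 and 11.11 on 1 probe and 8.24, 8.58, 7.98 and 8.01 on the other. Dlg1 read 10.69, 10.92, 10.56 and 10.39 on the steadier probe, Jhdm1d 7.42, 7.70, 7.34 and 7.13, Prune2 8.19, 8.37, 8.13 and 7.75, and Trp53i11 8.40, 8.84, 8.36 and 8.09. In these last 4 genes array 4 was the lowest as well. The probes of Trp53i11 lay apart in level, at means of 8.42 and 13.34.

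**Figure D5:**
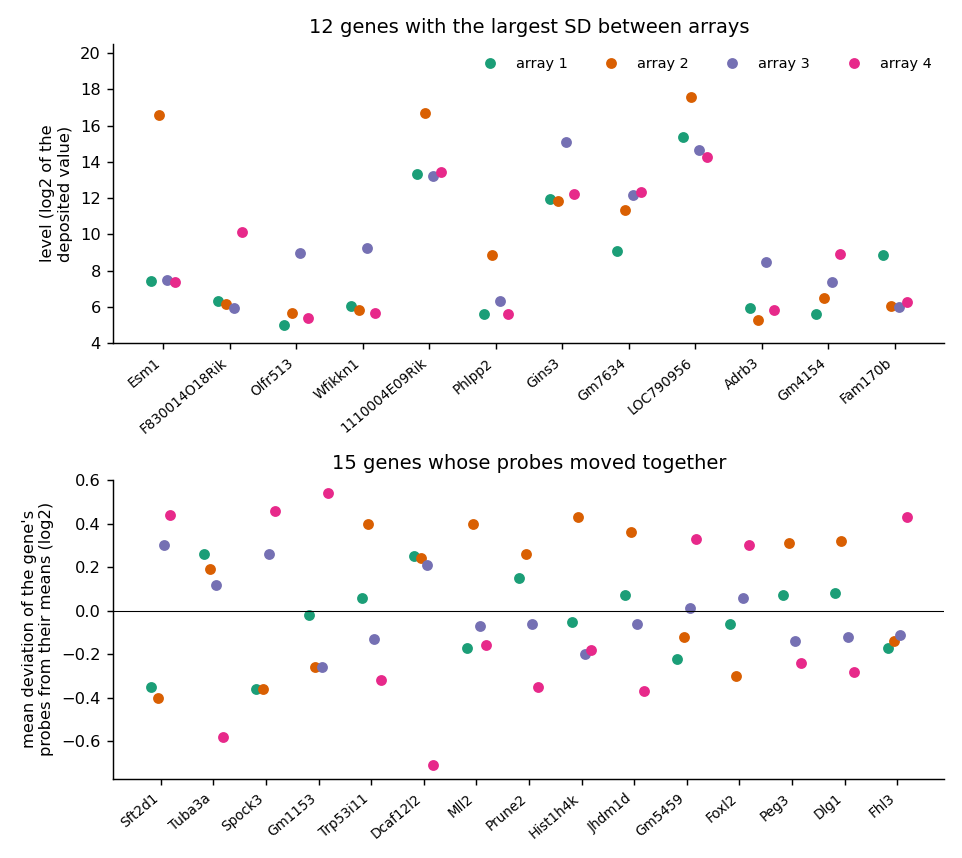
Upper panel: level on each array (vertical axis, log2 of the deposited value) of the 12 genes with the largest SD, where most have 1 array high and Esm1 spans 9.22. Lower panel: for the 15 genes whose detected probes all correlated, the mean deviation of the gene's probes from their own means on each array (log2 units), where arrays 2 and 4 most often hold the extremes.

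The steadiest readings came from unrelated genes over the whole scale of levels. Ttpa, which carries vitamin E, read 5.82 on each array (SD 0.0014), and Rps29, a ribosomal protein, 16.57 on each (SD 0.0017). Shc2, an adaptor of neuronal growth factor receptors, averaged 10.30, the ubiquitin ligase scaffold Cul3 10.40, Afap1l1 9.88, the chromatin protein Hmgb1 11.76, the kinase Jak3 6.07, Mad2l2 11.54 and the clathrin adaptor Ap2m1 14.10, with SDs from 0.0038 to 0.0074. Ergic2 completed the 10. The order rests on 4 arrays.

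The opposite extreme was a probe seen on 1 array only. The RIKEN gene 2210404E10Rik read 2.43, 2.41, 2.42 and 15.75, at background on 3 arrays and among the bright probes on array 4. Hoxc11, a patterning gene of the tail end of the body, read 3.30, 3.46, 14.86 and 3.20, and 4930447K03Rik 2.47, 2.55, 12.68 and 2.44, both on array 3 alone. LOC100044889 read 14.91 on array 3 and 4.89 to 5.23 elsewhere. These 4 had at most 1 raised neighbor each. The next 6 were less extreme. Boll, a germ cell RNA-binding protein (10.11), Gm3084 (9.65) and Cypt9 (9.28) were seen on array 4, and Gm3772 (9.12), Cyp3a16, a liver enzyme (8.72), and D7Ertd495e (8.93) on array 3. They had 3 to 8 raised neighbors each. All 10 were seen on array 3 or array 4.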

How the data were processed

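Whole-brain RNA of 4 control-diet males was hybridized to 1-color Agilent mouse arrays. The deposited scanner files, made with Agilent Feature Extraction 11.0.1.1 per the submitters' processing notes, hold the intensity of each spot and flags for signal well above background, saturation and uneven spots. The value table that the authors deposited holds 1 qspline-normalized linear signal per probe, and its log2 was taken here. Control spots were left out, and a probe printed 10 times counts once, detected on an array when at least as many of its spots passed as failed. The spread of values depends on this normalization, and the number of arrays limits the precision. The arrays of the other diets and the methylated DNA arrays were not analysed here, and 0 columns outside the mapped samples were used.

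The members, gene lists and families were chosen with earlier results of these data known. Genes were named by fixed rules: the 30 brightest, the 25 with the largest SD, the 15 genes with correlated probes and the largest SD of the least varying probe, the 10 steadiest, the 10 probes detected on 1 array with the widest gap, the listed genes, and in each family the brightest 3 detected genes and members of groups of 5 or fewer. Map2, Ppp1r17, Asmt and Hspa1b were not found under these names. After the list was seen, 4 symbols that are not histones (H13, H19, H28 and H47) were dropped from the histone pattern. Some genes that these rules select are not reported here. Symbols are those of the array design. Probe sequences and mm9 positions come from the scanner files. Repeat words of 16 bases were counted in RefSeq promoters of GRCm38.p6. A single array stood apart when Dixon's ratio passed 0.829. Alternatives were other scalings, normexp background correction with an offset of 50 in limma 3.58.1 (R 4.3.3), other flags and limits, and each array left out. Steps ran in Python 3.11.15 with numpy 2.4.6 and pandas 2.3.3 and were tested on simulated data.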

Additional observations from a re-analysis of the deposited data

Results flagged for a closer look

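In 43 of 404 values looked at (10.6%), 1 of the 4 arrays stood apart from the other 3, with a gap to its nearest neighbor that was most of the whole range and past Dixon's limit. Chance sets apart about 1 in 20 groups of 4. Many of the 25 genes with the largest SD are in the list because that choice favors them. The ratios below, which do not cover every one of the 43, are gap over range, and no explanation was tested. A ratio says nothing of the size of the range. Cul3 is among the 10 steadiest genes with a range of 0.01, and the striatal list mean ranged by 0.04. Array 1 was the high one in Fam170b (0.91), Ttbk1 (0.83), Slc2a1 (0.87) and Egr1 (0.96). Array 1 was the low one in Itpr1 (0.94) and Lhb (0.84). Array 2 was the high one in Esm1 (0.99), 1110004E09Rik (0.94), Aqp4 (0.90), Gh (0.83) and Cdkn1a (0.91). Array 2 was the low one in Tuba1b (0.85), Neurod1 (0.88), Foxj1 (0.95), Prm1 (0.88) and Gusb (0.88). Array 3 was the high one in Olfr513 (0.84), Wfikkn1 (0.89), Gins3 (0.89), Gm3364 (0.89), Gm2252 (0.91), Pitx3 (0.95), Myh11 (0.85), Tnni3 (0.90) and mean of striatal projection neurons (0.92). Array 3 was the low one in 1700027A23Rik (0.88). Array 4 was the high one in F830014O18Rik (0.91), LOC100044756 (0.92), LOC100039646 (0.91), Cul3 (0.88), Fhl3, mean over its probes (0.90), Pcp2 (0.92), Aif1 (0.97), Acta1 (0.91), mean of skeletal muscle (0.90) and mean of pancreas (0.90). Array 4 was the low one in Tuba3a, mean over its probes (0.83), Dcaf12l2, mean over its probes (0.96), Otx2 (0.90), Tef (0.84), Tsc22d3 (0.94) and Hspa5 (0.89).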

How the results depend on the processing

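No paired analysis was possible because the report describes 1 group. Of 105 values of the main results under an alternative, 90 stayed within the limits and 15 moved. The values are counts and spreads without a direction, so a reversal was not possible. Some could not move, such as the count of detected probes when a gene is read by its brightest probe alone. Detected probes ranged from 23385 to 28020 (23782 as reported), genes from 16356 to 19218, brain markers from 182 to 187 and genes of other tissues from 28 to 42. The count of 533 probes with a range of at least 1 moved most. It was 109 with normexp and quantile normalization, 1753 with the looser detection flag, 5200 with no detection filter, 70 among probes at or above the median level, 2192 at a range of 0.58 and 102 at a range of 2, and it lay between 318 (without array 1) and 434 (without array 3) with 1 array left out. The median over pairs of arrays of the SD of their difference, 0.248 as reported, was 0.147 with normexp and 0.247 to 0.292 with 1 array left out, highest without array 3. The median SD of the genes in the activity, clock, stress, interferon, thyroid, reference and calmodulin groups, 0.0825, was 0.194 with no scaling and 0.0781 to 0.087 with 1 array left out. The 608 genes with correlated probes became 1841 with no scaling and 923 to 996 with 1 array left out, where 3 points remain. The cause of these shifts was not tested. Of the 30 brightest genes, 25 were shared with the normexp order. Chosen after seeing the data, leaving out repeat and run probes kept 24 of the 30 and 512 of the 533, and leaving out probes with raised neighboring spots kept 455. These counts only take out probes already counted above, such as the 6 repeat probes of the 30 and the 78 with raised neighbors. They are therefore no separate check. Within families 437 of 450 values and within lists 341 of 350 stayed within the limits. Dim probes near background limit what can be read, and no array was repeated on the same RNA.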

Other observations

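Several genes were bright on 1 probe and at background on another, with neither a repeat word nor a run in the bright probe. They were picked after their values were seen. Kif5a, a motor of axonal transport, averaged 17.11 on 1 probe and 4.48 on the other. Chchd2, a mitochondrial protein, averaged 17.23 and 2.95. Gnas, the G protein subunit that stimulates adenylyl cyclase, was read by 4 probes, at 16.70, 14.50, 5.78 and 3.82. In Pbld and Dnajc5 the bright probe holds a repeat word, found in 50 and 35 promoters, and the values were 17.23 against 2.41 and 15.46 against 4.15.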
